A study of Mus musculus with 6 samples.

Results

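The Id proteins and the feedback inhibitors of bone morphogenetic protein (BMP) signalling were examined in mouse intestinal crypts, the glands at the base of the villi where stem and progenitor cells divide. The 10 genes were taken by name: Id1, Id2, Id3 and Id4, the inhibitory Smads Smad6 and Smad7, the decoy receptor Bambi, the ubiquitin ligase Smurf1, the corepressor Skil and the transcription factor Atoh8. All 10 were measured, each on 1 probe set, among 19938 genes tested. Crypts came from 3 YAP transgenic (YAP Tg) mice and 3 Control mice, with 1 array per mouse. The transgene, named in the series title, is YAP-S127A, in which the serine that Hippo kinases phosphorylate to restrain this coactivator is replaced. It is driven through Villin-rtTA, which places it in the intestinal epithelium. Doxycycline (dox), which switches the transgene on, was given for 2 days per the design text. That text does not say whether Control mice received it, so drug and transgene cannot be told apart, and the labels give no age, sex or strain and do not say which transgenes the Control mice carry.

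BMPs are secreted ligands of the TGF-beta superfamily. They bind serine-threonine kinase receptors that phosphorylate Smad1, Smad5 and Smad9, which enter the nucleus with Smad4 and switch on target genes, among them the Id genes and inhibitors that damp the pathway. In the gut, BMP signalling is strongest toward the villus and is held low at the crypt base by secreted antagonists, where it would otherwise restrict stem cell renewal. Id proteins carry a helix-loop-helix domain but no DNA-binding region, so they pair with the broadly expressed E proteins and keep them from forming active dimers with tissue-specific basic helix-loop-helix (bHLH) factors.

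Values are log2 signals of the deposited table, so a difference of 1 means a doubling of signal. Signals of different probe sets are not comparable as amounts. Gene medians were 6.74 to 6.79 on the 6 arrays. Epithelial markers were high in both groups, with Krt8 at 13.68 ± 0.0159 (SD, n = 3) in YAP Tg and 13.40 ± 0.0424 in Control crypts. Markers of crypt base cells were present (Lyz1, the Paneth cell lysozyme, at 13.14 ± 0.248 in YAP Tg and 13.54 ± 0.197 in Control crypts). Villus genes such as Apoa1 were present too (13.84 ± 0.157 in YAP Tg and 13.62 ± 0.0178 in Control crypts). Apoa1 does not stand for all of them. The 10 villus enterocyte markers measured had a median log2 change (YAP Tg minus Control) of -1.11, with a range of -2.51 to 1.09. Yap1 stood at 9.17 ± 0.159 in YAP Tg and 9.41 ± 0.0915 in Control crypts (limma's adjusted p = 0.184), and the sources used here do not say whether its probe set covers the transgene. The YAP target Ccn1 was higher by 4.49 on the log2 scale (SE 0.080, limma's adjusted p = 2.11e-05).

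Of the 10 genes, 5 rose in YAP Tg crypts: Id1, Id2, Id3, Smad7 and Skil. None fell past the test, a limma test over all genes with a threshold of 0.05 on the adjusted p. Among all genes, 7.5% were called higher and 6.7% lower, 14.2% in either direction. All 3 YAP Tg values lay above all 3 Control values for 6 members, the 5 that rose and Smurf1, where this held for 16.5% of all genes. They lay below for Id4 and Bambi, where this held for 17% of all genes. The groups thus did not overlap for 8 of 10 members, against 33.6% of all genes. The median log2 change was 0.64 over the members and 0.029 over all genes. At an unadjusted p below 0.05, which 29.9% of all genes passed (13.7% higher and 16.2% lower), the count was 8, with Smurf1 higher and Id4 and Bambi lower. Every value of every member exceeded the array control medians, which were 4.97 to 5.33. The 95th percentile of these control probe sets was 10.58 to 10.74, which only Id1 and Id2 exceeded, and only in YAP Tg crypts. The control medians are thus no detection limit. Mean signals of Id4 (6.51) and Atoh8 (6.58) over the 6 arrays lay below the gene medians of 6.74 to 6.79.

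**Figure D1:**
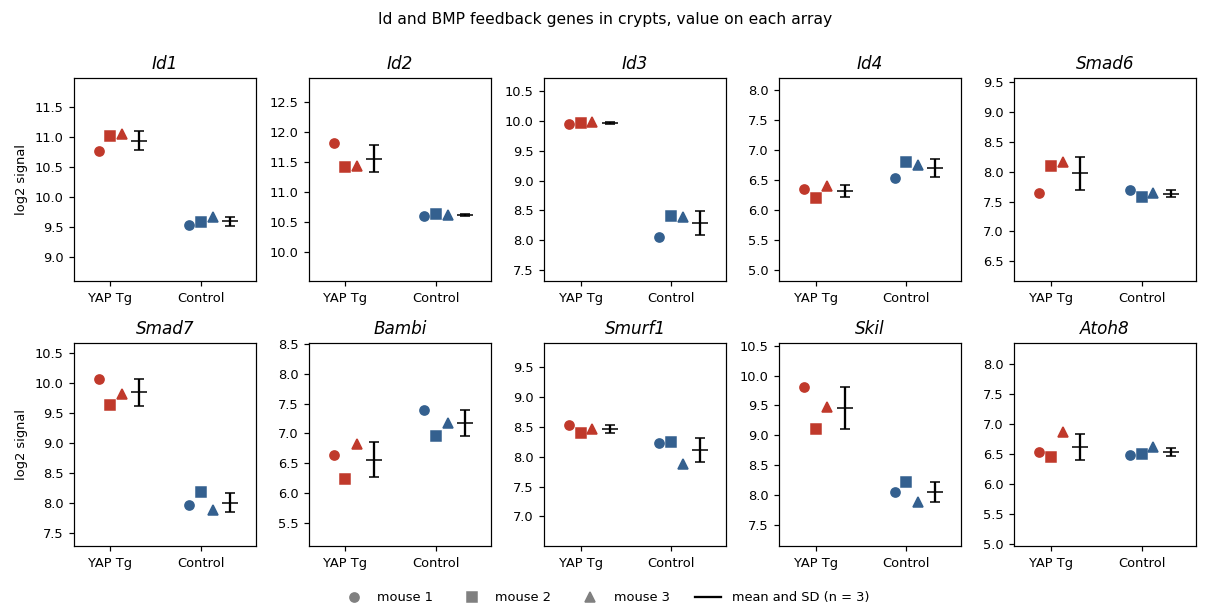
Log2 signal of the 10 genes on each array, with YAP Tg left and Control right in each panel. Each mouse number has its own symbol, and the labels name no pairing of mice across groups. The mean with its SD (n = 3) is in black. Each panel has its own y axis. Id1, Id2, Id3, Smad7, Skil and Smurf1 lie wholly above their Control values, Id4 and Bambi wholly below, and Smad6 and Atoh8 overlap.

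Id1, the BMP target most often used as a readout of the pathway, had log2 signals of 10.77, 11.01 and 11.04 in YAP Tg crypts, against 9.52, 9.57 and 9.67 in Control crypts. The groups were far apart relative to their spread. The log2 change was 1.35 (SE 0.0982, 95% interval 1.12 to 1.59, limma's adjusted p = 0.00104), a 2.55-fold difference.

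Id2, which besides its role in epithelium is needed for innate lymphoid cells, stood at 11.81, 11.42 and 11.43 in YAP Tg crypts, against 10.59, 10.63 and 10.61 in Control crypts. YAP Tg mouse 1 was the highest, and the Control arrays were nearly identical. Its change was 0.94 (SE 0.121, 95% interval 0.65 to 1.23, limma's adjusted p = 0.00567), or 1.92-fold.

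Id3, often co-expressed with Id1, was 9.94, 9.97 and 9.97 in YAP Tg crypts, against 8.05, 8.41 and 8.39 in Control crypts. Here the YAP Tg arrays were the ones that nearly coincided, and Control mouse 1 was the lowest. Id3 rose by 1.68 (SE 0.110, 95% interval 1.41 to 1.94, limma's adjusted p = 0.000898), or 3.20-fold.

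Id4, the family member best known from neural and mammary progenitors, did not follow the others. Its log2 signals were 6.35, 6.20 and 6.40 in YAP Tg crypts, against 6.54, 6.81 and 6.76 in Control crypts. The groups did not overlap and the difference was -0.39 (95% interval -0.63 to -0.14), which missed the threshold (limma's adjusted p = 0.0533). Taken within each array, where a common shift cancels, Id1 minus Id4 was 4.42 to 4.81 in YAP Tg and 2.76 to 2.98 in Control crypts. Id2 minus Id4 was 5.03 to 5.47 in YAP Tg and 3.82 to 4.05 in Control crypts. Id3 minus Id4 was 3.57 to 3.77 in YAP Tg and 1.51 to 1.63 in Control crypts. No range overlapped its counterpart. That follows from the single genes, since Id1, Id2 and Id3 lay wholly above and Id4 wholly below their Control values. The differences thus add no separate evidence. These pairs were also picked after their values were seen, and an exact permutation test of 3 against 3 arrays cannot go below p = 0.1.

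The RefSeq table of promoters (build GRCm38.p6) held windows for 6 of the 10 genes, and none for Id1, Smad7, Skil or Bambi. The 250 bases before the gene start are printed for the Id genes with a window, because Id2 and Id3 rose and Id4 did not. Each reads 5′ to 3′ on the gene's strand, and capitals mark GGCGCC, a GC-rich element bound by BMP Smads, and GGAATG, the core bound by TEAD factors, the DNA-binding partners of YAP, or its reverse complement CATTCC.
Id2 (chr12:25096093-25096342, minus strand): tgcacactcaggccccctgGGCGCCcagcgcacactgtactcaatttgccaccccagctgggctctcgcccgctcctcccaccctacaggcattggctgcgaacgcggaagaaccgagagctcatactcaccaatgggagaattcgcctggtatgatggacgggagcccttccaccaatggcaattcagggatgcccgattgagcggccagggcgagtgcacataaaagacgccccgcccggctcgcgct
Id3 (chr4:136143572-136143821, plus strand): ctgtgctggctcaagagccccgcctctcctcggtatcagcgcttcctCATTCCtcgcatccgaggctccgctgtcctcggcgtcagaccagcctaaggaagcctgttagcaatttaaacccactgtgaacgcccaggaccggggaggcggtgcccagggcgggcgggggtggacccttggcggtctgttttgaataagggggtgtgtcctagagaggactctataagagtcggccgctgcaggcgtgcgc
Id4 (chr13:48260866-48261115, plus strand): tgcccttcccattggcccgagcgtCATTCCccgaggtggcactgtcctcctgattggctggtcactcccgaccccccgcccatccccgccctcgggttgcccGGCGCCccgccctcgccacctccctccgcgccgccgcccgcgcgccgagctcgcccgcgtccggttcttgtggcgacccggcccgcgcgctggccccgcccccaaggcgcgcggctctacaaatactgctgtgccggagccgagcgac

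The Id2 window held 1 GGCGCC and no GGAATG on either strand. The Id3 window held 1 GGAATG on the minus strand, 203 to 198 bases before the start, and no GGCGCC. The Id4 window held 1 of each. Another Smad motif, CAGAC, occurred 2 times in the Id3 window, 1 on each strand, and in neither of the other printed windows. The elements did not overlap. Of the windows not printed, that of Smurf1 held 2 CAGAC and no other motif, and those of Smad6 and Atoh8 held none. Among 32851 RefSeq windows of this length, 9.59% held GGCGCC, 12.6% held GGAATG and 42.2% held CAGAC on either strand. These shares were not matched for base composition. G and C made up 62.8% of the Id2 and Id3 windows and 75.6% of the Id4 window. A match of letters is a description and not a binding site.

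Smad7 and Smad6 block the pathway at the receptor, Smad7 for both the BMP and TGF-beta arms and Smad6 mainly for BMP. Smad7 had log2 signals of 10.08, 9.64 and 9.83 in YAP Tg crypts, against 7.96, 8.18 and 7.87 in Control crypts. All YAP Tg arrays were at least a log2 unit above any Control array. Its change of 1.84 (SE 0.139, 95% interval 1.51 to 2.18, limma's adjusted p = 0.00108), or 3.59-fold, was the largest of the 10.

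Smad6 stood at 7.65, 8.10 and 8.16 in YAP Tg crypts, against 7.70, 7.57 and 7.64 in Control crypts. YAP Tg mice 2 and 3 lay above the Control range and mouse 1 within it. The difference of 0.34 (95% interval -0.014 to 0.69) did not pass (limma's adjusted p = 0.180). Without YAP Tg mouse 1 it was 0.49 and passed (adjusted p = 0.0196). Within arrays, Smad7 minus Smad6 was 1.54 to 2.43 in YAP Tg and 0.24 to 0.61 in Control crypts, a pair also picked after its values were seen.

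Skil encodes SnoN, a nuclear corepressor that binds Smads at their targets and is itself induced by TGF-beta signalling. Its log2 signals were 9.81, 9.11 and 9.48 in YAP Tg crypts, against 8.05, 8.22 and 7.89 in Control crypts. YAP Tg mice differed by 0.70 among themselves, the widest spread of the members, yet the lowest of them exceeded every Control value. The change was 1.41 (SE 0.189, 95% interval 0.96 to 1.87, limma's adjusted p = 0.00642), or 2.66-fold.

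Bambi, a receptor-like protein without a kinase domain that acts as a decoy, was 6.63, 6.24 and 6.82 in YAP Tg crypts, against 7.39, 6.96 and 7.18 in Control crypts. Every YAP Tg value was below every Control value. The difference of -0.61 (95% interval -1.04 to -0.18) did not pass over all genes (limma's adjusted p = 0.0743).

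Smurf1, a ubiquitin ligase that targets BMP Smads and receptors for degradation, stood at 8.53, 8.39 and 8.46 in YAP Tg crypts, against 8.22, 8.24 and 7.88 in Control crypts. The groups did not overlap, and the difference of 0.34 (95% interval 0.062 to 0.62) did not pass (limma's adjusted p = 0.110). Atoh8, a bHLH factor that responds to BMP in endothelium and liver, was 6.53, 6.46 and 6.86 in YAP Tg crypts, against 6.49, 6.50 and 6.62 in Control crypts. The groups overlapped, with a difference of 0.082 (95% interval -0.21 to 0.38, limma's adjusted p = 0.684).

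**Figure D2:**
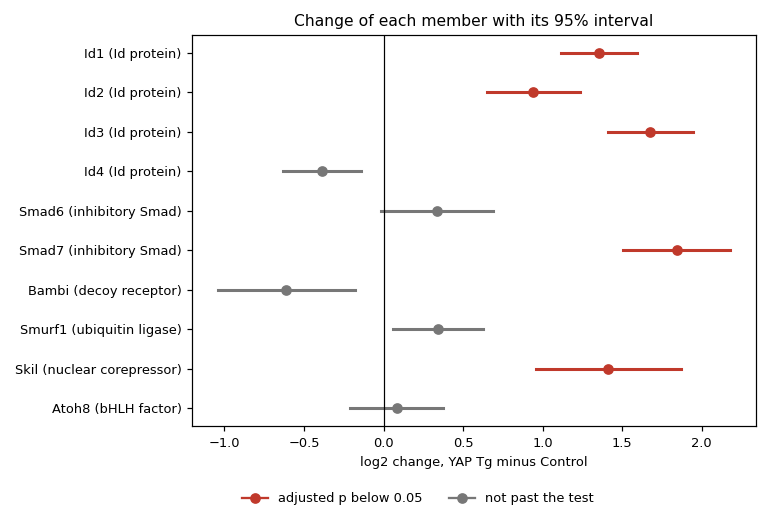
Log2 change (YAP Tg minus Control, x axis) of the 10 genes with 95% intervals from limma (n = 3 per group), grouped by role. The 5 genes past the test, in red, lie between 0.94 and 1.84, and the 5 others, in grey, between -0.61 and 0.34.

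The 5 calls did not rest on any 1 mouse. With each array left out in turn, the same 5 genes passed in all 6 fits, with adjusted p of at most 0.0117 for Id1, 0.0392 for Id2, 0.0101 for Id3, 0.0137 for Smad7 and 0.0419 for Skil. Over these fits the change ran from 1.30 to 1.44 for Id1, 0.81 to 1.01 for Id2, 1.56 to 1.74 for Id3, 1.73 to 1.95 for Smad7 and 1.24 to 1.59 for Skil. The count over all genes moved far more, to 674, 737 or 669 higher when Control mouse 1, 2 or 3 was omitted and 2802 when YAP Tg mouse 2 was, against 1495 with all arrays. Genes called lower numbered 1336 with all arrays and 3889 when YAP Tg mouse 2 was omitted. They numbered 890 and 811 when YAP Tg mouse 1 or 3 was omitted, and 369, 421 and 462 when Control mouse 1, 2 or 3 was. Mouse 2 of the YAP Tg group, which moved the total most, had the lowest YAP Tg value of 7 of the 10 members (Id2, Id4, Smad7, Bambi, Smurf1, Skil and Atoh8) and the highest of 0. Mouse 1 had the lowest of the other 3 (Id1, Id3 and Smad6) and the highest of 4 (Id2, Smad7, Smurf1 and Skil), and mouse 3 had the highest of the remaining 6. The lowest value is not always the one nearest Control. For Id4 and Bambi, which lay below Control, mouse 2 was the furthest from it. For Id2, mouse 2 was barely below mouse 3 (11.416 and 11.428).

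**Figure D3:**
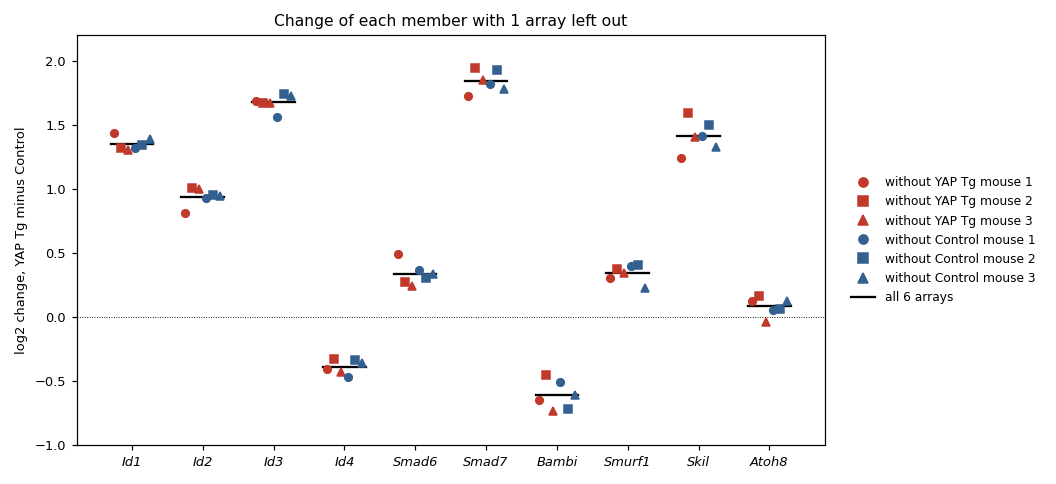
Log2 change (YAP Tg minus Control, y axis) of each of the 10 genes when 1 array is left out, with red symbols for an omitted YAP Tg mouse, blue symbols for an omitted Control mouse and a black line for all 6 arrays. The values of Id1, Id2, Id3, Smad7 and Skil stay between 0.81 and 1.95, and Atoh8 alone crosses 0, at -0.041 without YAP Tg mouse 3.

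Markers of some cell types also differed between the groups, higher for some types and lower for others. Their counts stand beside shares over all genes of 7.5% higher and 6.7% lower. Of 11 measured markers of T cells and intraepithelial lymphocytes, 10 were higher in YAP Tg crypts and none lower. Their median change was 1.37, with a range of 0.47 to 1.72. For all 11 the YAP Tg values lay wholly above the Control values, where this held for 16.5% of all genes. Their summed signal, on the log2 scale, was 14.90 to 15.13 in YAP Tg and 13.57 to 13.85 in Control crypts. Sums here and below lean on the strongest probe sets, such as Lyz2 for myeloid cells and Olfm4 for stem cells. They do not measure cell numbers. Ccl5, a lymphocyte chemokine, stood at 13.17 ± 0.0279 in YAP Tg and 12.14 ± 0.187 in Control crypts (SD, n = 3). Id2, Id3, Smad7 and Skil are also expressed by lymphocytes, and the part of these cells in the result was not tested. In bulk tissue, more cells of a type and more RNA per cell cannot be told apart.

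None of 9 endothelial, 7 fibroblast or 6 smooth muscle markers passed limma's test (2, 0 and 1 at an unadjusted p below 0.05, which 29.9% of all genes passed), with summed signals of 9.14 to 9.27 in YAP Tg and 9.12 to 9.21 in Control crypts for endothelium. Fibroblast sums were 9.27 to 9.79 in YAP Tg and 9.08 to 9.91 in Control crypts, where Dcn alone ran from 5.51 to 8.775. Smooth muscle sums were 8.46 to 8.68 in YAP Tg and 8.42 to 8.54 in Control crypts, and 1 smooth muscle marker was higher without YAP Tg mouse 2. Of 6 macrophage and myeloid markers, 2 were higher (Csf1r by 0.85 and Cd68 by 0.61) and 1 lower (Itgam, -0.43), with sums of 9.97 to 10.15 in YAP Tg and 9.99 to 10.43 in Control crypts. Without any 1 Control mouse or YAP Tg mouse 1, the higher count was 1, and the lower count was 0 without YAP Tg mouse 1 or 3 or Control mouse 1 or 2. None of 5 B and plasma cell markers passed (2 at an unadjusted p below 0.05), with sums of 9.01 to 9.66 in YAP Tg and 8.71 to 8.84 in Control crypts.

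Among epithelial cells, all 6 Lgr5 stem cell markers and 4 of 6 Paneth cell markers were lower, and of 10 villus enterocyte markers 4 were lower and 1 higher. Without any 1 Control mouse these lower counts were 2 to 3 for stem cells, 1 to 2 for Paneth cells and 1 to 2 for enterocytes. Without YAP Tg mouse 1 the Paneth and enterocyte counts were 2 each, and without YAP Tg mouse 3 the counts were 4 for stem cells, 2 for Paneth cells and 6 for enterocytes. Without YAP Tg mouse 2, 2 enterocyte markers were higher. Summed signals were 10.20 to 11.41 in YAP Tg and 13.34 to 13.42 in Control crypts for stem cells. Paneth sums were 13.88 to 14.17 in YAP Tg and 14.33 to 14.71 in Control crypts, and enterocyte sums were 15.62 to 15.98 in YAP Tg and 16.06 to 16.11 in Control crypts. Of 5 goblet cell markers, 2 were lower, Agr2 (-2.21) and Spdef (-1.05), a count of 3 without YAP Tg mouse 3 and 1 without Control mouse 3. Goblet sums were 13.91 to 14.42 in YAP Tg and 14.54 to 14.63 in Control crypts. Of 8 markers shared by the intestinal epithelium, 3 were higher, among them the keratin Krt18 (1.53), and 1 was lower, the transcription factor Cdx1 (-0.97). Epithelial sums were 15.40 to 15.46 in YAP Tg and 15.03 to 15.15 in Control crypts. The higher count was 1 without YAP Tg mouse 3 or any 1 Control mouse, and the lower count was 0 without Control mouse 3. None of 5 markers of proliferating cells passed (1 at an unadjusted p below 0.05), with a median change of -0.74. Their sums were 12.07 and 12.19 in YAP Tg mice 1 and 3, 13.03 in YAP Tg mouse 2, and 12.88 to 12.97 in Control crypts. Without YAP Tg mouse 2, 4 of the 5 were lower. The marker genes named here were chosen after their values were seen. The part of these cell types in the result was not tested either.

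The ligands of the pathway split. Of 8 BMP ligands, 2 were higher and 2 lower, with a median change of 0.15. Counts in this and the lists below stand beside shares over all genes of 7.5% higher and 6.7% lower. Bmp2, an epithelial ligand of the upper crypt and villus, stood at 11.27, 10.45 and 11.04 in YAP Tg crypts, against 7.69, 7.86 and 7.36 in Control crypts, changing by 3.28 (SE 0.236; limma's adjusted p = 0.00101). Bmp8b was 10.05, 9.84 and 9.96 in YAP Tg crypts, against 6.50, 7.38 and 6.90 in Control crypts, changing by 3.02 (SE 0.217; limma's adjusted p = 0.00101). These were 9.74-fold and 8.12-fold differences with no overlap, and Bmp8b has a close paralog, Bmp8a (0.71, adjusted p = 0.194), with which a probe set may cross-hybridise.

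Bmp7 fell by 0.74 (SE 0.125, limma's adjusted p = 0.0137) and Bmp3, a ligand that antagonises other BMPs and is named here after its value was seen, by 1.44 (SE 0.255, adjusted p = 0.0163). The count of ligands that were lower was 0 when Control mouse 1 or 3 was omitted, and 1 when Control mouse 2 or YAP Tg mouse 1 or 3 was. Bmp4, the mesenchymal ligand of the villus core, was at 5.95 ± 0.084 in YAP Tg and 5.85 ± 0.0128 in Control crypts (SD, n = 3).

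Of 13 secreted antagonists measured, 1 rose and 1 fell, with a median change of 0.097. The share called was near the 14.2% of all genes called in either direction. Nbl1, a BMP-binding protein of the DAN family, was 8.83, 8.29 and 9.03 in YAP Tg crypts, against 6.58, 6.55 and 6.23 in Control crypts, changing by 2.27 (SE 0.206; limma's adjusted p = 0.00191). It kept its call in all 13 alternatives run. Twsg1, which modulates BMP binding by chordin, fell by 0.62 (SE 0.156, adjusted p = 0.0489), a call lost without any 1 Control mouse and without YAP Tg mouse 1 or 3, which left 0 antagonists lower.

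Receptors and BMP Smads gave 2 lower genes of 15 and none higher, with a median change of 0.062. Here too the share called was near the 14.2% of all genes called in either direction. Rgmb, a BMP co-receptor that also marks stem cells, was 8.07, 8.85 and 8.75 in YAP Tg crypts, against 9.62, 9.58 and 9.56 in Control crypts, changing by -1.03 (SE 0.204; limma's adjusted p = 0.0231). Smad1, which carries the BMP signal to the nucleus, was 7.41, 8.04 and 7.55 in YAP Tg crypts, against 8.47, 8.52 and 8.36 in Control crypts, changing by -0.78 (SE 0.168; limma's adjusted p = 0.0293). Smad1 was lower and Smad7 higher in YAP Tg crypts, and a link between the changes was not tested. The count of lower genes was 0 without YAP Tg mouse 3 or any 1 Control mouse, 1 without YAP Tg mouse 1 and 4 without YAP Tg mouse 2, where 1 gene was higher.

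In the TGF-beta arm, 3 of 11 genes rose and 2 fell, with a median change of 0.20. Tgfbr2, the ligand-binding TGF-beta receptor, was 9.30, 9.27 and 9.26 in YAP Tg crypts, against 7.88, 7.78 and 7.87 in Control crypts, changing by 1.44 (SE 0.0657; limma's adjusted p = 0.000471). The ligands Tgfb3 (0.85, SE 0.0964, adjusted p = 0.00375) and Tgfb1 (0.71, SE 0.121, adjusted p = 0.0144) rose as well, and Tgfb1 lost its call without any 1 Control mouse. For Tgfb3 the 3 Control values were identical at 6.24, an SD of 0, and lay below the gene medians of 6.74 to 6.79. The genes that fell were Acvr1b and Smad3 (-0.63 and -0.56), both named after their values were seen. The count of higher genes was 6 without YAP Tg mouse 2, and that of lower genes was 0 without any 1 Control mouse and 1 without YAP Tg mouse 1.

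Of 13 other negative regulators of Smad signalling, 3 rose and 1 fell, with a median change of 0.051. Pmepa1, a membrane protein induced by TGF-beta that sequesters receptor-activated Smads, was 10.23, 10.13 and 10.22 in YAP Tg crypts, against 8.20, 8.78 and 8.16 in Control crypts, changing by 1.82 (SE 0.174; limma's adjusted p = 0.00221). This was close in size to the change of Smad7. The ubiquitin ligase Itch rose by 0.59 (SE 0.104, adjusted p = 0.0156), and the corepressor Tgif1 fell by 0.69 (SE 0.147, adjusted p = 0.0291). The third gene that rose was Nedd4l, a relative of Smurf1 named after its value was seen (0.56). The count of higher genes was 5 without YAP Tg mouse 2 and 1 without YAP Tg mouse 3 or Control mouse 2 or 3. That of lower genes was 2 without YAP Tg mouse 2 and 0 without any 1 of the other mice.

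Of 10 other genes known to respond to BMP in bone, limb or liver, 2 rose and none fell, with a median change of 0.095. Gata3 changed by 0.38 (SE 0.068, limma's adjusted p = 0.0165) and Hamp, which encodes hepcidin in liver, by 0.51 (SE 0.0948, adjusted p = 0.0191). The Hamp signal of 4.50 ± 0.0488 in YAP Tg and 3.99 ± 0.152 in Control crypts (SD, n = 3) lay below the array control medians, and Gata3 is also a T cell gene. The count was 0 without any 1 Control mouse and 1 without YAP Tg mouse 1 or 3.

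**Figure D4:**
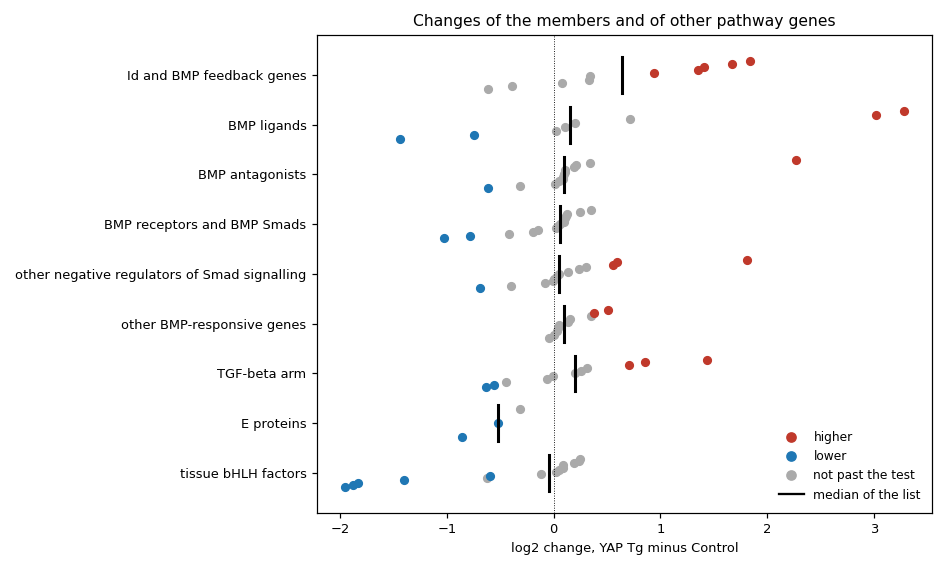
Log2 change (YAP Tg minus Control, x axis) of the 10 Id and BMP feedback genes in the top row and of other genes of the pathway by list below, with red points for higher and blue points for lower by limma at an adjusted p below 0.05, grey points for the rest and a black bar for the median. Medians are 0.64 in the top row and -0.52 to 0.20 in the lists.

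Of the 3 E proteins, to which Id proteins bind, 2 fell in YAP Tg crypts. Tcf3, which encodes E2A, was 7.89, 8.43 and 8.08 in YAP Tg crypts, against 9.04, 8.94 and 9.00 in Control crypts, changing by -0.86 (SE 0.143; limma's adjusted p = 0.0133). Tcf12, which encodes HEB, averaged 9.45 ± 0.230 in YAP Tg crypts and 9.97 ± 0.0851 in Control crypts (SD, n = 3 each) with no overlap, changing by -0.52 (SE 0.128; limma's adjusted p = 0.0448). Tcf4 (E2-2) had values that overlapped, with a difference of -0.31 (limma's adjusted p = 0.150). The count of E proteins that fell was 1 without YAP Tg mouse 1 and 0 without YAP Tg mouse 3 or any 1 Control mouse.

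Of 14 tissue bHLH factors measured, whose partners are the E proteins or which act in the same network, 5 were lower and none higher, with a median change of -0.047. Neurog3, which specifies enteroendocrine cells, was 6.06, 6.35 and 6.30 in YAP Tg crypts, against 8.32, 7.86 and 8.16 in Control crypts, changing by -1.88 (SE 0.143; limma's adjusted p = 0.00111). Ascl2, a stem cell factor, fell by 1.83 (SE 0.194, adjusted p = 0.00299) and Bhlha15, a factor of secretory cells, by 1.40 (SE 0.183, adjusted p = 0.00594). These 3 kept their calls in all 13 alternatives run. Atoh1, the secretory lineage factor, and Hes6, both named after their values were seen, were also lower (-1.95 and -0.60). The count of lower genes was 3 without YAP Tg mouse 1 or Control mouse 2 or 3, and 1 gene was higher without YAP Tg mouse 2.

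**Figure D5:**
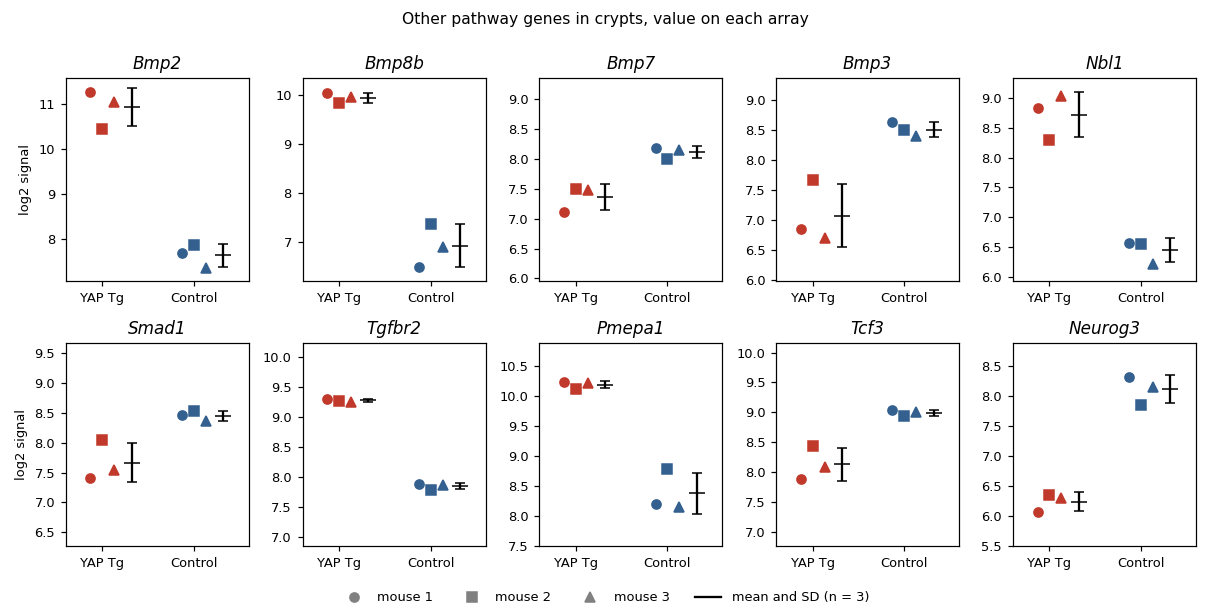
Log2 signal of 10 other pathway genes on each array, drawn as for the Id and BMP feedback genes, with YAP Tg left, Control right, a symbol per mouse and the mean with its SD (n = 3). All 10 were picked among genes past the test, so groups that lie apart in each panel follow from the choice. Bmp2, Bmp8b, Nbl1, Tgfbr2 and Pmepa1 are higher in YAP Tg crypts, and Bmp7, Bmp3, Smad1, Tcf3 and Neurog3 are lower.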

How the data were processed

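Total RNA of isolated crypts from 6 mice was labelled with biotin per the labels' protocols. The authors deposited log2 signals of 35556 probe sets, for which the submitters' processing notes name Affymetrix Expression Console 1.1. The sources used here do not give background correction, normalization or array build, and the log2 scale was read from the values (1.99 to 14.4). A normalization to a common level hides any change shared by all genes.

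Probe sets with numbers under that of the first named one (6617) were treated as array controls and omitted. Of the rest, 21789 had 1 symbol, and the one with the highest mean stood for each of 19938 genes. Groups came from sample titles, with each sample a separate mouse by its title or number. The R package limma (3.58.1, under R 4.3.3) tested YAP Tg minus Control by lmFit and eBayes, two-sided and without covariates, with Benjamini-Hochberg adjustment over all genes. The script was tested on simulated data. The members and lists were chosen with earlier results of these data known. Named genes were all members and, per list, up to 3 past the test with the smallest p, plus the E proteins. Promoters came from RefSeq, and protein sequences were not used here. Alternatives left out each array or changed the block, scaling, filter, prior, weights, probe sets or threshold.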

Additional observations from a re-analysis of the deposited data

How the results depend on the processing

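The counts of 5 members higher and 0 lower held in most settings. The 5 higher stayed within 5 to 6 with 1 array left out and at 5 in the other settings. The count of members lower, 0 by limma and 2 at an unadjusted p below 0.05, where 16.2% of all genes were lower, was 1 under quantile normalization (Id4, adjusted p = 0.0281), 1 among genes above the median signal (Bambi, adjusted p = 0.0480) and 2 at an adjusted p below 0.1, where 10.5% of all genes were lower. The log2 change of Atoh8 ran from -0.041, a reversal without YAP Tg mouse 3, to 0.16 with 1 array left out. Counts over all genes were 669 to 2802 higher and 369 to 3889 lower with 1 array left out. With array weights they were 2459 higher and 3481 lower, at an adjusted p below 0.01 they were 661 and 386, and at a threshold of 0.1 there were 2101 lower. With the replicate number as a block they were 975 higher and 727 lower, with 5 members higher and 0 lower. Same-numbered mice did not deviate together more than others (correlations over genes of -0.131, 0.012 and 0.098, against -0.135 to 0.12 for differently numbered mice). Values were centred within groups of 3 mice, which limits this check, so pairing was not excluded. The labels name no pairing. The cause of these shifts was not tested. The number of arrays limits precision, and 95% intervals of the members spanned about a log2 unit or less. Alternatives for the pathway and marker lists were added after the data were seen.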
